A study of Mus musculus with 4 samples.

Results

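The genes described here are 36 members of the mouse lysosome and autophagy system, taken by gene symbol from a table of read counts for 54532 genes in bone marrow neutrophils. They were divided by role into 3 MiT/TFE transcription factors, 10 lysosomal hydrolases, 3 lumenal cofactors, 6 lysosomal membrane proteins, 5 proteins of the proton pump and 9 autophagy genes. All 36 symbols were found, and all 36 were among the 13479 genes with enough reads to test. The tested cells were neutrophils of wild-type (WT) mice given Aβ40, a form of the amyloid beta peptide that collects in the brain and its vessels in Alzheimer's disease, at 20 µg/ml for 4 h. Their controls were WT bone marrow neutrophils given DMSO, a common solvent for peptides and drugs. The series was made to look into how Aβ40 induces neutrophil extracellular traps (NETs), the webs of DNA and granule protein that these cells release. Each group had 2 RNA sequencing libraries, with no word in the labels on whether these are separate mice or cultures. The p-values given below therefore rest on the spread between these libraries, which may be technical. The fit takes that spread partly from the gene itself and in larger part from all genes tested. The age and sex of the mice, the purity of the cells and the state of aggregation of the peptide were not stated in the labels. Nor were the amount of DMSO and the time for which the control cells were kept in it.

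Lysosomes are acidic compartments in which hydrolases break down protein, lipid and sugar chains delivered by endocytosis, phagocytosis and autophagy. The vacuolar proton pump (V-ATPase) acidifies them, and autophagosomes bring in pieces of the cell's own cytoplasm after the ULK1 kinase has started their formation and lipid-linked proteins of the LC3 and GABARAP families have coated them. TFEB, TFE3 and MITF are related transcription factors that bind the CLEAR element in the promoters of many lysosomal genes, and the mTORC1 kinase, which is recruited to the lysosome surface when amino acids are plentiful, holds TFEB and TFE3 in the cytoplasm. Neutrophils carry hydrolases of this kind in their azurophil granules, which are relatives of lysosomes, and use autophagy as they mature.

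The CLEAR element centres on the palindrome TCACGTGA, whose core is the E-box CACGTG. Promoter windows from RefSeq (mouse build GRCm38.p6), each running from 250 bases before to 50 bases after a transcription start, were found for 29 of the members, which have 36 windows because 5 genes have more than 1 start. The 8-letter palindrome reads the same on both strands, and every copy of it also holds the 6-letter core. It stood in the windows of 5 members, Atp6v0d1, Atp6v1a, Ctsa, Ctsd and Mcoln1. That is 13.9% of the members' windows, beside 0.974% of the 32851 windows of the whole table and 1.81% of the 12312 windows of genes tested here. The core, with or without the flanking letters, was in 27.8% of the members' windows, beside 7.15% of all windows and 9.92% of the windows of genes tested. The window of each of the 5 genes is printed below on the strand of transcription, with the palindrome in capitals, and with CACGTG in capitals where the core stood without the flanking letters. The window of Grn, the member with the largest difference between Aβ40 and DMSO cells, is printed with them and holds neither.
Atp6v0d1 (chr8:105566015-105566314, minus strand): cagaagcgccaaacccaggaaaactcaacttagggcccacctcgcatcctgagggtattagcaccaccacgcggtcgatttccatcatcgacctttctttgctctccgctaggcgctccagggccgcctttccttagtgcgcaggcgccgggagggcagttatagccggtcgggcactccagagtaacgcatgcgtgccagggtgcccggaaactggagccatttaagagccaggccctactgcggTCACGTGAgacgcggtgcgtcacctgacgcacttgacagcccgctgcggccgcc
Atp6v1a (chr16:44139210-44139509, minus strand): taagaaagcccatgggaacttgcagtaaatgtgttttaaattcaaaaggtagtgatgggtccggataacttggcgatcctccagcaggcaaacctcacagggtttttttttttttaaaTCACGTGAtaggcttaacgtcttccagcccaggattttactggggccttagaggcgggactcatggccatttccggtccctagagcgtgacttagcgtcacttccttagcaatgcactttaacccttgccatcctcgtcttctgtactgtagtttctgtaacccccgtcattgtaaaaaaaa
Ctsa (chr2:164833523-164833822, plus strand): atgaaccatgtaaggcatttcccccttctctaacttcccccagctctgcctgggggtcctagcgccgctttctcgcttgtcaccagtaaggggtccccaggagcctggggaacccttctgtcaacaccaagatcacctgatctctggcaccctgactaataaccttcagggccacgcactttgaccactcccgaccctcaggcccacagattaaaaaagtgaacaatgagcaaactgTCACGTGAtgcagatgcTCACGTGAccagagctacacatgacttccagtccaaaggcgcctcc
Ctsd (chr7:142387778-142388077, minus strand): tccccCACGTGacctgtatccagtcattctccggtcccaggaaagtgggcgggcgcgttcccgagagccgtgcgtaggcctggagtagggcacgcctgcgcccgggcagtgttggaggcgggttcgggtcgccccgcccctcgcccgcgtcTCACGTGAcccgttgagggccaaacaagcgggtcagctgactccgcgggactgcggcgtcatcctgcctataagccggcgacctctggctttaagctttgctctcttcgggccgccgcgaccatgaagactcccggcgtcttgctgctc
Mcoln1 (chr8:3500269-3500568, plus strand): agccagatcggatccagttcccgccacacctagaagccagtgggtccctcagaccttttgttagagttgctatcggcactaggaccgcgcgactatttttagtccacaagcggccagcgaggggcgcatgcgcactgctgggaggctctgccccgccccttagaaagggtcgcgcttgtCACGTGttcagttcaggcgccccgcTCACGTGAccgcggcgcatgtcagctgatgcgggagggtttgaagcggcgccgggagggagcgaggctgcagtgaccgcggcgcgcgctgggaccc
Grn (chr11:102430257-102430556, plus strand): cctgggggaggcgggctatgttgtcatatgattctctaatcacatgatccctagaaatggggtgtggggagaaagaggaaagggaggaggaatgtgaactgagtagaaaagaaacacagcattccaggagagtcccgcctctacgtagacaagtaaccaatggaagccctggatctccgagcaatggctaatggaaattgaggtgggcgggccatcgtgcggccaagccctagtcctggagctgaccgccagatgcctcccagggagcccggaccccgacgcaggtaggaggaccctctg
Counted from the first transcribed base as 1, with no base 0, the palindrome began at -4 in Atp6v0d1, at -132 in Atp6v1a, at -99 in Ctsd and at -46 in Mcoln1. Ctsa held 2 copies, at -13 and 5, in the window of its second start. The windows of Ulk1, Tfe3, Tfeb and Mitf held neither the palindrome nor its core. Such a match describes the letters of a window and does not show that a factor bound there.

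No member passed the test between Aβ40 and DMSO cells. The comparison used edgeR's quasi-likelihood test on the deposited counts with Benjamini-Hochberg adjustment over the 13479 genes tested, with calls made below an adjusted p of 0.05. By that rule 0 members were called higher and 0 lower, beside 17 genes called higher (0.126% of those tested) and 0 called lower (0%) in the whole table. At an unadjusted p under 0.05, 1 member, Ctsh, was higher in Aβ40 cells, where 6.51% of all genes were. At the same threshold 5 members, Ulk1, Grn, Tfe3, Atp6v0d1 and Hexa, were lower, where 5.72% of all genes were. DESeq2 called 1 member, Grn, lower at an adjusted p of 0.0224. Of the 11213 genes to which DESeq2 gave an adjusted p, it called 36 lower and 93 higher. In edgeR fits without 1 library, the lone library of a group is assumed to vary like the libraries of the other group. For those fits only the sizes of the differences are given here, as the Aβ40 level over the DMSO level on a log2 scale. They ran from -0.93 to -0.61 for Grn, and from -0.79 to -0.59 for Ulk1. The ranges were -0.78 to -0.56 for Tfe3 and -0.61 to -0.49 for Atp6v0d1. They were wider for Hexa (-0.72 to -0.32), Ctsd (-0.67 to -0.01) and Ctss (0.12 to 0.67).

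The directions leaned to lower values in Aβ40 cells. Of the 36 members, 26 had a negative and 10 a positive log2 fold change, which is the Aβ40 level over the DMSO level on a log2 scale, and the median was -0.10, or 0.931 times the DMSO level. Over all genes tested the median log2 fold change was 0.01 and 48.9% were negative. In 13 members both Aβ40 libraries lay below both DMSO libraries, where 21.9% of all genes did so. In 4 members both Aβ40 libraries exceeded both DMSO libraries, where 23.2% of all genes did so. The other 19 overlapped. The members' log2 fold changes ran from -0.75 for Grn to 0.45 for Ctsh. Levels in 1 gene across libraries are given below as CPM, counts scaled to a common library size with the TMM method, which corrects for depth and for the make-up of each library.

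**Figure D1:**
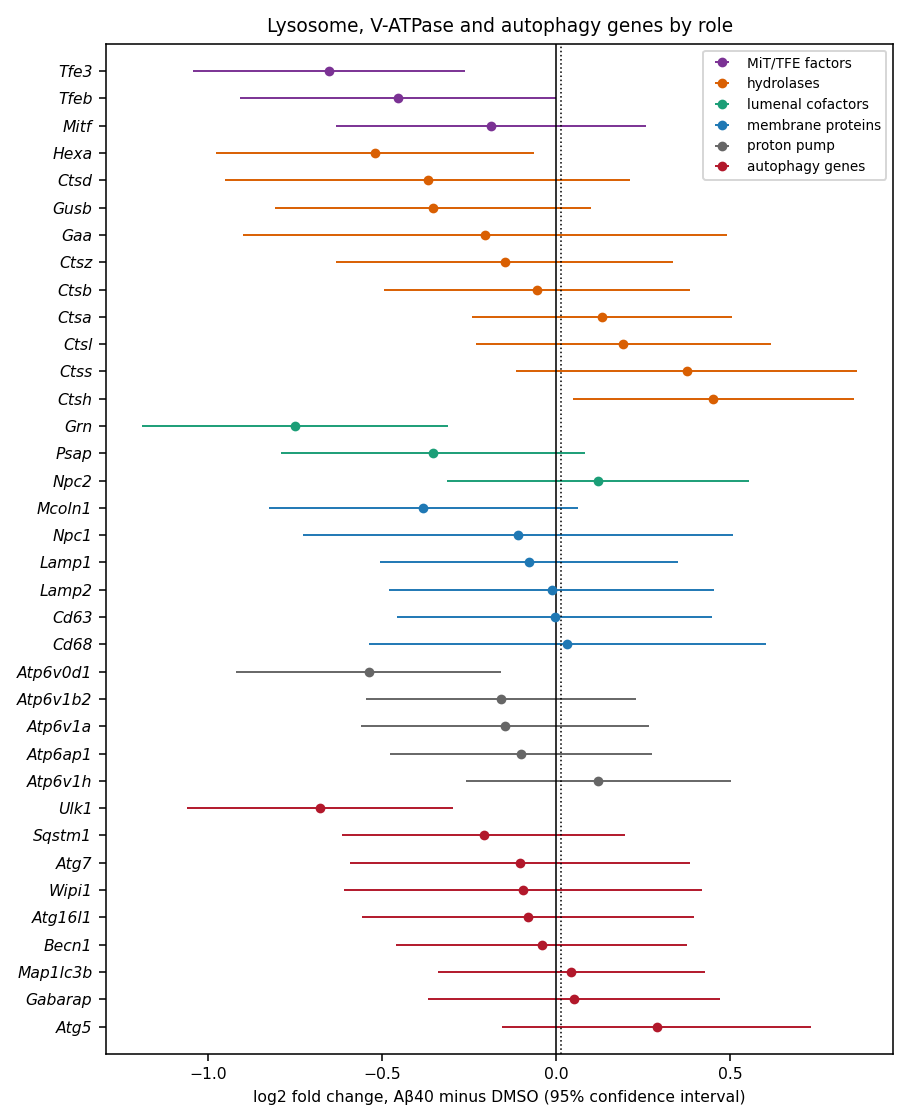
Log2 fold change of each of the 36 members, Aβ40 minus DMSO, with its 95% confidence interval from the edgeR fit over 2 libraries a group, coloured by role. The solid line marks no difference and the dotted line the median of all genes tested, 0.01. Intervals of Grn, Ulk1, Tfe3, Atp6v0d1 and Hexa lie below 0, and that of Ctsh lies above it.

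The spread within groups was of the same order as most of these differences. The median absolute log2 difference over the members was 0.184 between the 2 Aβ40 libraries and 0.191 between the 2 DMSO libraries, and 0.156 between the group means. For 13 members (36.1%) the difference between the means was wider than both differences within pairs, beside 32.5% of all genes tested. Over all genes the 2 DMSO libraries were farther apart than the 2 Aβ40 libraries, with median absolute log2 differences of 0.214 for the Aβ40 pair and 0.307 for the DMSO pair. Libraries held 17684621 and 19163503 counts in Aβ40 cells, against 19524125 and 17212264 in DMSO cells. At that depth 1 count was worth 0.0523 to 0.0585 CPM. The members took 0.952% and 0.999% of all counts in the Aβ40 libraries, against 1.09% and 1.14% in the DMSO libraries.

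Neutrophil markers had the largest summed level of all marker lists in every library, and genes of other marrow cells were present and differed between the groups. Those of neutrophils, led by S100a9 and S100a8, summed to 133295 and 125979 CPM in Aβ40 libraries, against 127975 and 90401 CPM in DMSO libraries. Of these 10 genes, S100a9 and Ly6g were higher in both Aβ40 libraries, where 23.2% of all genes were. Cxcr2, Csf3r and Mpo were lower in both, where 21.9% of all genes were, and the other 5 overlapped. The 8 eosinophil markers, led by Prg2 and Ear6, summed to 3566 and 3611 CPM in Aβ40 libraries, against 1623 and 1365 CPM in DMSO libraries. The 8 B cell markers, led by Ighm and Cd79b, summed to 1152 and 1144 CPM in Aβ40 libraries, against 519 and 605 CPM in DMSO libraries. In both of these lists all 8 genes were higher in both Aβ40 libraries, where 23.2% of all genes were. None was at 0 in all libraries. The adjusted test was passed by 5 of the B cell markers, 1 of the eosinophil markers and 1 of the T and NK cell markers. All of these were higher, where 0.126% of all genes tested were called higher. Monocyte and macrophage markers, led by Ly6c2 and Ccr2, summed to 3738 and 3265 CPM in Aβ40 libraries, against 2885 and 2750 CPM in DMSO libraries, and most of that sum was Ly6c2, at 2615 and 2233 CPM in Aβ40 libraries, against 1871 and 1718 CPM in DMSO libraries. Of the 11 tested, 7 were higher in both Aβ40 libraries, where 23.2% of all genes were. These were Ly6c2, Mrc1, C1qa, C1qb, C1qc, Ms4a7 and Vcam1. Another 2 (Csf1r and Cx3cr1) were lower in both, where 21.9% of all genes were, and 2, among them Ccr2, overlapped. The 8 T and NK cell markers, led by Nkg7 and Gzmb, summed to 92.9 and 105 CPM in Aβ40 libraries, against 67.9 and 64.6 CPM in DMSO libraries. Of these, 7 were higher in both Aβ40 libraries, where 23.2% of all genes were, and 1 overlapped. Summed erythroid markers, led by Hbb-bs and Hba-a1, overlapped, at 3123 and 3303 CPM in Aβ40 libraries, against 4629 and 1929 CPM in DMSO libraries. Of the 5 genes, Alas2 was higher and Klf1 lower in both Aβ40 libraries, beside 23.2% and 21.9% of all genes, and 3 overlapped. Summed platelet markers (Pf4, Itga2b) stayed between 28.6 and 34.1 CPM in all 4 libraries. Lysosomal genes are active in all of these cells, and in bulk RNA fewer cells of a type and less RNA per cell cannot be told apart. The part of other cells in the members' values was not tested.

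Among the MiT/TFE factors, all 3 members were lower in both Aβ40 libraries than in either DMSO library, where 21.9% of all genes were. None of the 3 passed the test. Their median log2 fold change was -0.45, beside 0.01 for all genes. Tfe3, a close relative of Tfeb that shares many of its targets, read 50.5 and 58.2 CPM in Aβ40 libraries, against 88.1 and 82.8 CPM in DMSO libraries. Both Aβ40 values thus lay below both DMSO values, with a gap wider than either pair. The means were 54.3 ± 5.47 CPM in Aβ40 cells and 85.5 ± 3.76 CPM in DMSO cells (SD, n = 2 each). The log2 fold change of Tfe3 was -0.65 (SE 0.17, interval -1.04 to -0.26), with an adjusted p of 0.263 by edgeR's quasi-likelihood test. The gene lies on chromosome X, at 7762560 to 7775202 on the plus strand (mm10). Tfeb, the best known activator of lysosomal genes, read 42.3 and 58.8 CPM in Aβ40 libraries, against 69.5 and 69.3 CPM in DMSO libraries. Here the DMSO libraries were nearly equal and the first Aβ40 library was the lowest of the 4. For Tfeb the log2 fold change was -0.45 (SE 0.20, edgeR adjusted p = 0.408), and it was -0.73 without the second Aβ40 library and -0.24 without the first. Mitf, known above all from pigment cells, mast cells and osteoclasts, read 23.0 and 21.3 CPM in Aβ40 libraries, against 25.2 CPM in each DMSO library, with a log2 fold change of -0.19 (SE 0.20). Without the first Aβ40 library the median of the 3 was -0.24, and without the second it was -0.73. Tfec, the remaining relative of this family, which is not among the members, overlapped at 37.1 and 30.6 CPM in Aβ40 libraries, against 30.7 and 26.0 CPM in DMSO libraries. Its log2 fold change was 0.26 (SE 0.20).

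**Figure D2:**
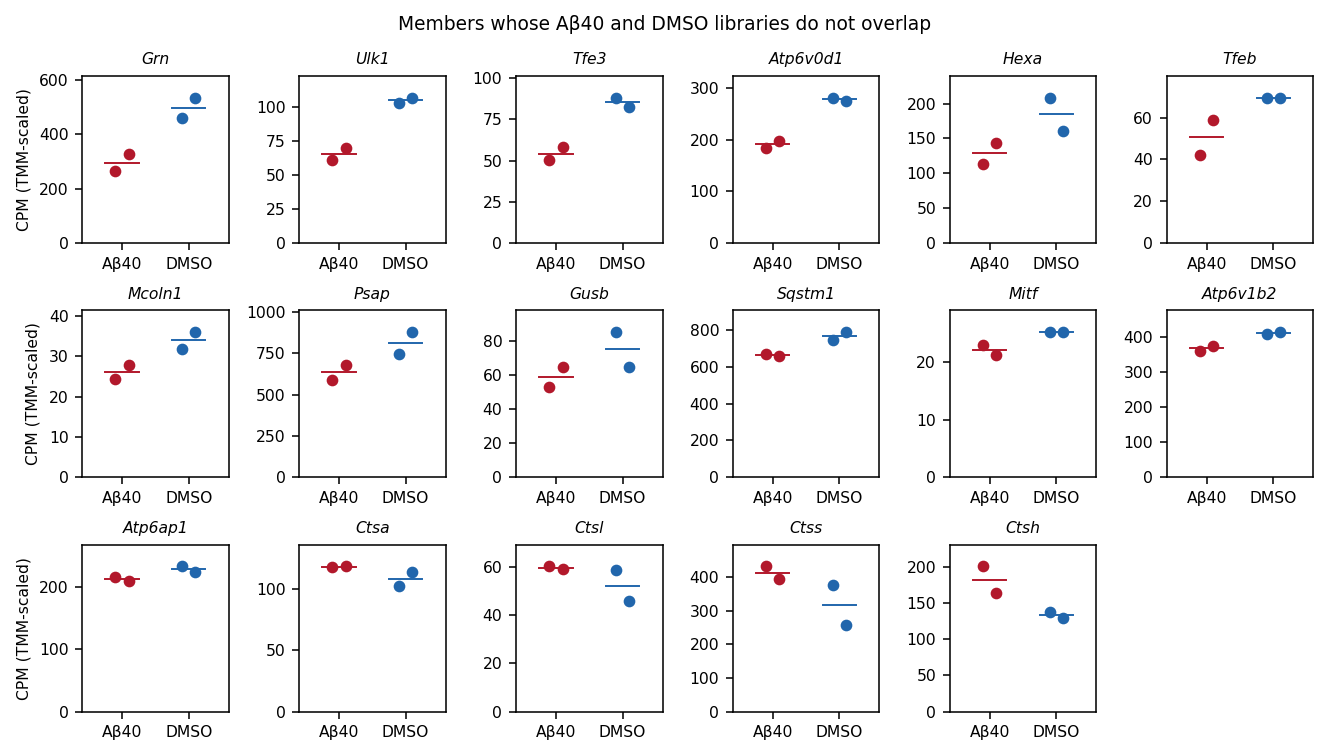
TMM-scaled CPM of the 17 members whose Aβ40 libraries (red, left) and DMSO libraries (blue, right) do not overlap, 1 point a library, with a line at the mean of 2. The first 13 panels are lower in Aβ40 cells and the last 4, Ctsa, Ctsl, Ctss and Ctsh, are higher, and no member passed the adjusted test.

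The 10 hydrolases showed no common direction. In 2 of them, Hexa and Gusb, both Aβ40 libraries were below both DMSO libraries, where 21.9% of all genes were. In 4 they were above, where 23.2% of all genes were, and in 4 the groups overlapped. The median log2 fold change was -0.10, beside 0.01 for all genes, and it was 0.03 without the first Aβ40 library, -0.17 without the second, 0.02 without the first DMSO library and -0.07 without the second. None of the 10 passed the test.

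The 4 that were higher in both Aβ40 libraries were all cathepsins, the proteases of the lysosome. Ctsh, an aminopeptidase of the papain family, read 200 and 164 CPM in Aβ40 libraries, against 138 and 129 CPM in DMSO libraries. The lower Aβ40 value was still above the higher DMSO value. Ctsh had a log2 fold change of 0.45 (SE 0.18, interval 0.05 to 0.85), with an adjusted p of 0.372 by edgeR's quasi-likelihood test. Ctss, a cysteine protease that trims the invariant chain in antigen-presenting cells, read 431 and 393 CPM in Aβ40 libraries, against 377 and 258 CPM in DMSO libraries. The second DMSO library stood well below the other 3. For Ctss the log2 fold change was 0.38 (SE 0.22, edgeR adjusted p = 0.511). It was 0.67 without the first DMSO library and 0.12 without the second. Ctsl, a broad endopeptidase, read 60.4 and 59.4 CPM in Aβ40 libraries, against 58.7 and 46.1 CPM in DMSO libraries, so that the gap between the groups was smaller than the spread of either pair. Ctsa, a carboxypeptidase that also protects beta-galactosidase and neuraminidase in the lysosome, read 119 CPM in each Aβ40 library, against 103 and 114 CPM in DMSO libraries. B cells and macrophages are rich in Ctss and Ctsh as a matter of background. The summed B cell markers and the summed monocyte and macrophage markers given above were also higher in both Aβ40 libraries. Gene by gene, all 8 B cell markers were higher in both, where 23.2% of all genes were. Of the 11 tested monocyte and macrophage markers, 7 were higher in both and 2 lower, beside 23.2% and 21.9% of all genes. The part of these cells in the cathepsin values was not tested.

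On the other side, Hexa, the alpha subunit of beta-hexosaminidase, which degrades GM2 ganglioside, read 114 and 143 CPM in Aβ40 libraries, against 208 and 161 CPM in DMSO libraries. Both groups were wide and did not overlap. On the log2 scale the difference of Hexa was -0.52 (SE 0.20, interval -0.98 to -0.06), with an adjusted p of 0.370 by edgeR's quasi-likelihood test. Without the second DMSO library it was -0.71, and without the first it was -0.32. Gusb, beta-glucuronidase, read 53.1 and 64.9 CPM in Aβ40 libraries, against 85.5 and 65.2 CPM in DMSO libraries, where the nearest values of the groups were almost the same.

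Ctsd, the aspartic protease cathepsin D, had the highest level per length of all members and the largest gap between DMSO libraries in absolute terms. It read 1187 and 1524 CPM in Aβ40 libraries, against 2137 and 1365 CPM in DMSO libraries. The second DMSO library thus lay between the Aβ40 values. For Ctsd the log2 fold change was -0.37 (SE 0.26, edgeR adjusted p = 0.594). It was -0.67 without the second DMSO library and -0.01 without the first, so its size rested on the first DMSO library. Ctsb, an abundant cysteine protease, read 721 and 667 CPM in Aβ40 libraries, against 645 and 798 CPM in DMSO libraries. Ctsz, a carboxypeptidase, read 229 and 280 CPM in Aβ40 libraries, against 328 and 235 CPM in DMSO libraries. The Aβ40 values of Ctsb lay between its DMSO values, and those of Ctsz crossed them, so no direction could be read. Gaa, acid alpha-glucosidase, which breaks down glycogen in lysosomes, was the scarcest member, at 5.09 and 7.79 CPM in Aβ40 libraries, against 7.18 and 7.69 CPM in DMSO libraries. Ctsb overlaps Fdft1 and Ctsz overlaps Nelfcd on the opposite strand in the annotation of the files, and no source states whether reads were counted by strand, so some reads may belong to the partner. Mean counts per library were 12993 for Ctsb beside 2446 for Fdft1, and 4938 for Ctsz beside 677 for Nelfcd.

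The lumenal cofactors are proteins that work inside the lysosome without cleaving a substrate of their own. Grn encodes progranulin, which is carried to the lysosome, is cut there into granulins and supports the work of several hydrolases. It read 264 and 327 CPM in Aβ40 libraries, against 460 and 534 CPM in DMSO libraries. Both Aβ40 values were far below both DMSO values. Means were 295 ± 44.5 CPM in Aβ40 cells and 497 ± 52.8 CPM in DMSO cells (SD, n = 2 each), so that the Aβ40 level was 0.594 times the DMSO level. The log2 fold change of Grn was -0.75 (SE 0.19, interval -1.19 to -0.31), with an unadjusted p of 0.00391 and an adjusted p of 0.263 by edgeR's quasi-likelihood test. Of all genes tested, 4.23% had a log2 fold change as low as or lower than that of Grn. Over the 12 alternatives its log2 fold change ran from -0.93 to -0.61. Leaving out a library could not change its sign, since the groups did not overlap. Grn is on chromosome 11, at 102430315 to 102437048 on the plus strand (mm10).

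Psap encodes prosaposin, the precursor of the saposins that present sphingolipids to their hydrolases, and its protein binds progranulin. It read 590 and 680 CPM in Aβ40 libraries, against 748 and 878 CPM in DMSO libraries. The groups did not overlap, and the log2 fold change of Psap was -0.36 (SE 0.19, edgeR adjusted p = 0.488). Npc2, which binds cholesterol in the lumen and hands it to NPC1, read 542 and 571 CPM in Aβ40 libraries, against 569 and 455 CPM in DMSO libraries. Its groups overlapped. The median log2 fold change of the 3 cofactors was -0.36, beside 0.01 for all genes.

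Of the 6 membrane proteins, 5 overlapped between the groups and 1 was lower in both Aβ40 libraries, where 21.9% of all genes were. The exception was Mcoln1, which encodes the lysosomal calcium channel TRPML1 and carries the CLEAR palindrome in the window printed above. It read 24.3 and 27.7 CPM in Aβ40 libraries, against 31.9 and 36 CPM in DMSO libraries. On the log2 scale the difference of Mcoln1 was -0.38 (SE 0.20, interval -0.83 to 0.06), with an adjusted p of 0.466 by edgeR's quasi-likelihood test. Lamp1 and Lamp2, the main glycoproteins of the lysosomal membrane, had log2 fold changes of -0.08 (SE 0.19) and -0.01 (SE 0.21). Lamp1 read 419 and 381 CPM in Aβ40 libraries, against 377 and 467 CPM in DMSO libraries. Lamp2 read 865 and 645 CPM in Aβ40 libraries, against 781 and 743 CPM in DMSO libraries. The 95% interval of Lamp1 ran from -0.51 to 0.35 and that of Lamp2 from -0.48 to 0.45.

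Cd63, a tetraspanin of late endosomes and azurophil granules, read 498 and 567 CPM in Aβ40 libraries, against 601 and 467 CPM in DMSO libraries. Cd68, a lysosomal glycoprotein used as a macrophage marker, read 97.9 and 82.8 CPM in Aβ40 libraries, against 65.0 and 112 CPM in DMSO libraries. Npc1, the cholesterol exporter of the lysosomal membrane, read 26.3 and 21.9 CPM in Aβ40 libraries, against 19.2 and 32.8 CPM in DMSO libraries. In each of these 3 genes the Aβ40 values lay between the DMSO values. A pseudogene, Cd63-ps, had a mean of 845 counts a library, and Npc1 overlaps Rmc1 on the opposite strand, with mean counts of 459 for Npc1 and 965 for Rmc1, so both genes are uncertain. The median log2 fold change of the membrane proteins was -0.05, and it was -0.20 without the first Aβ40 library, -0.02 without the second, -0.27 without the first DMSO library and 0.00 without the second.

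**Figure D3:**
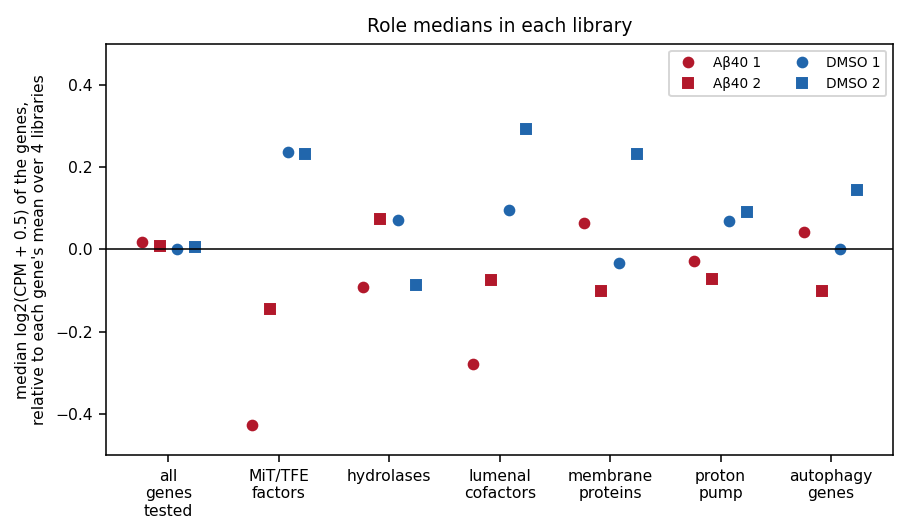
Median over the genes of each role of log2(CPM + 0.5) relative to each gene's own mean over the 4 libraries, for Aβ40 libraries (red) and DMSO libraries (blue), with circles for replicate 1 and squares for replicate 2. The Aβ40 libraries lie below the DMSO libraries for MiT/TFE factors (-0.43 and -0.14, against 0.24 and 0.23), lumenal cofactors and the proton pump, while hydrolases and membrane proteins and autophagy genes overlap. All genes tested stay between 0.00 and 0.02.

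The proton pump consists of a cytosolic V1 part, which splits ATP, and a membrane V0 part, through which protons pass. Among the 5 members, 3 were lower in both Aβ40 libraries, where 21.9% of all genes were, and 2 overlapped. Their median log2 fold change was -0.15, beside 0.01 for all genes. Atp6v0d1, a V0 subunit that couples the 2 parts, had the largest difference. It read 184 and 198 CPM in Aβ40 libraries, against 281 and 274 CPM in DMSO libraries. Replicates differed by little in both groups, with means of 191 ± 9.46 CPM in Aβ40 cells and 278 ± 4.51 CPM in DMSO cells (SD, n = 2 each). The log2 fold change of Atp6v0d1 was -0.54 (SE 0.17, interval -0.92 to -0.16), with an unadjusted p of 0.0109 and an adjusted p of 0.325 by edgeR's quasi-likelihood test. Over the 12 alternatives it ran from -0.61 to -0.49. With no overlap between the groups, its sign could not change when a library was left out. The gene spans 105524465 to 105566047 on the minus strand of chromosome 8 (mm10), and its window carries the CLEAR palindrome next to the start.

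Atp6v1b2, a catalytic-head subunit of V1, read 360 and 373 CPM in Aβ40 libraries, against 406 and 413 CPM in DMSO libraries. Atp6ap1, an accessory protein needed to assemble V0, read 216 and 210 CPM in Aβ40 libraries, against 233 and 224 CPM in DMSO libraries. Both were separated from DMSO by small steps, with log2 fold changes of -0.16 (SE 0.17) for Atp6v1b2 and -0.10 (SE 0.17) for Atp6ap1. Atp6v1a, the subunit that binds and splits ATP, carries the palindrome as Atp6v0d1 does. It read 241 and 193 CPM in Aβ40 libraries, against 233 and 248 CPM in DMSO libraries, and overlapped. Atp6v1h, a regulatory V1 subunit, also overlapped, at 136 and 120 CPM in Aβ40 libraries, against 122 and 114 CPM in DMSO libraries.

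Of the 9 autophagy genes, 2 were lower in both Aβ40 libraries, where 21.9% of all genes were, and 7 overlapped. Their median log2 fold change was -0.08, beside 0.01 for all genes. Ulk1, the kinase that starts autophagosome formation, read 61.2 and 69.7 CPM in Aβ40 libraries, against 103 and 107 CPM in DMSO libraries. The higher Aβ40 value was well below the lower DMSO value. Means were 65.5 ± 5.96 CPM in Aβ40 cells and 105 ± 2.70 CPM in DMSO cells (SD, n = 2 each). The log2 fold change of Ulk1 was -0.68 (SE 0.17, interval -1.06 to -0.30), with an unadjusted p of 0.00308 and an adjusted p of 0.249 by edgeR's quasi-likelihood test, the lowest adjusted p among the members in that fit. The log2 fold change ran from -0.79 to -0.59 over the 12 alternatives. As the groups did not overlap, leaving out a library could not change its sign. Ulk1 lies at 110784488 to 110810097 on the minus strand of chromosome 5 (mm10). Sqstm1, the cargo receptor p62, read 671 and 655 CPM in Aβ40 libraries, against 744 and 788 CPM in DMSO libraries, with a log2 fold change of -0.21 (SE 0.18, edgeR adjusted p = 0.666).

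The genes of the conjugation machinery and the autophagosome coat overlapped between the groups. Map1lc3b, which encodes LC3B, was the steadiest of these, at 338 and 326 CPM in Aβ40 libraries, against 327 and 317 CPM in DMSO libraries. Its log2 fold change was 0.04 (SE 0.17, interval -0.34 to 0.43). Gabarap, of the sister family, read 751 and 737 CPM in Aβ40 libraries, against 770 and 665 CPM in DMSO libraries. Atg5, which is joined to ATG12 in the enzyme complex that attaches lipid to LC3, read 102 and 74.8 CPM in Aβ40 libraries, against 69.9 and 75.0 CPM in DMSO libraries. The first Aβ40 library stood apart from the other 3 there, and the log2 fold change of Atg5 was 0.29 (SE 0.20). Atg7, the E1-like enzyme of this system, read 97.7 and 87.2 CPM in Aβ40 libraries, against 79.5 and 119 CPM in DMSO libraries. Atg16l1, which positions the lipid-attaching complex, read 34.1 and 25.5 CPM in Aβ40 libraries, against 31.1 and 31.9 CPM in DMSO libraries. Neither showed a direction. Becn1, a subunit of the lipid kinase complex that acts after ULK1, read 72.5 and 65.4 CPM in Aβ40 libraries, against 62.9 and 79.0 CPM in DMSO libraries. Wipi1, which binds the lipid that this kinase makes, read 17.3 and 15.9 CPM in Aβ40 libraries, against 15.5 and 20.0 CPM in DMSO libraries. In both genes the Aβ40 values lay between the DMSO values. The median of the autophagy genes was -0.16 without the first Aβ40 library, 0.01 without the second, -0.20 without the first DMSO library and 0.01 without the second.

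Compared per gene length, as the deposited FPKM (fragments scaled by gene length and library depth), the members spanned a wide range. Ctsd was highest, at mean levels of 569 FPKM in Aβ40 cells and 741 FPKM in DMSO cells. Gabarap followed with 398 FPKM in Aβ40 cells and 388 FPKM in DMSO cells, and then Ctss with 299 FPKM in Aβ40 cells and 233 FPKM in DMSO cells. Psap stood at 228 FPKM in Aβ40 cells and 295 FPKM in DMSO cells, and Sqstm1 at 195 FPKM in Aβ40 cells and 227 FPKM in DMSO cells. By the mean of all libraries, 11 members reached 100 FPKM and 17 reached 50 FPKM. The 3 transcription factors were among the lower members, with Tfeb at 8.80 FPKM in Aβ40 cells and 12.2 FPKM in DMSO cells, Tfe3 at 5.79 FPKM in Aβ40 cells and 9.19 FPKM in DMSO cells, and Mitf at 3.53 FPKM in Aβ40 cells and 4.05 FPKM in DMSO cells. The lowest were Npc1, at 2.21 FPKM in Aβ40 cells and 2.41 FPKM in DMSO cells, and Gaa, at 1.33 FPKM in Aβ40 cells and 1.55 FPKM in DMSO cells. On this scale Grn read 83.8 FPKM in Aβ40 cells and 142 FPKM in DMSO cells, and Ulk1 read 9.95 FPKM in Aβ40 cells and 16.1 FPKM in DMSO cells.

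**Figure D4:**
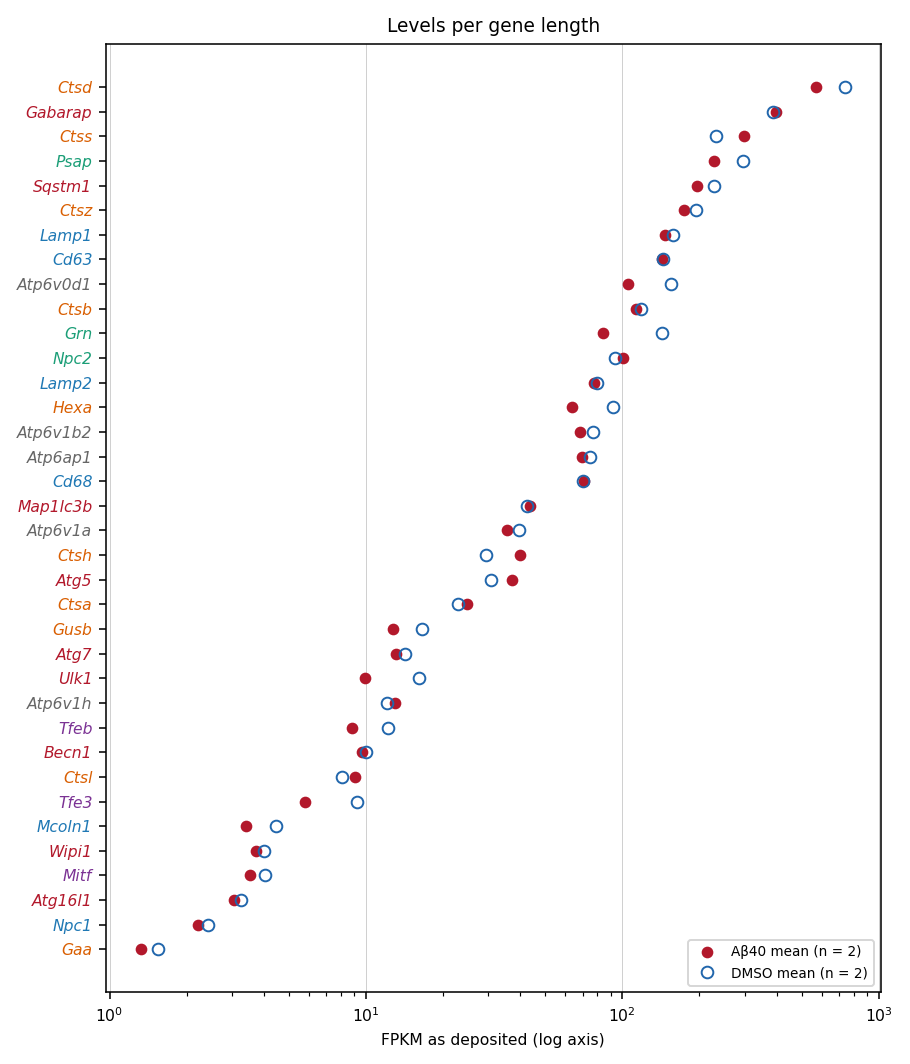
Mean deposited FPKM of each member on a log axis, in Aβ40 cells (filled red) and DMSO cells (open blue), n = 2 libraries each, ordered by the mean of all libraries. Gene names are coloured by role: purple for MiT/TFE factors, orange for hydrolases, green for lumenal cofactors, light blue for membrane proteins, grey for the proton pump and dark red for autophagy genes. Levels run from 569 FPKM in Aβ40 cells and 741 FPKM in DMSO cells for Ctsd to 1.33 FPKM in Aβ40 cells and 1.55 FPKM in DMSO cells for Gaa.

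Further genes of the same pathways were divided about evenly between the directions. They were listed by known role, but with earlier results of these data known. Outside the members, 169 of 175 listed genes had enough reads to test, and 0 of them were called by edgeR in either direction. At an unadjusted p under 0.05, 4 were higher and 9 lower in Aβ40 cells, where 6.51% of all genes were higher and 5.72% lower. Their median log2 fold change was -0.02, with 81 positive and 88 negative, beside 0.01 for all genes. In 31 of them both Aβ40 libraries exceeded both DMSO libraries and in 39 both were below, where 23.2% and 21.9% of all genes tested did so. Those shares of all genes also stand beside the counts of each list that follows. Genes named as lowest or highest in a list are the extremes among those at a mean of at least 5 CPM. The difference between the members and these further genes was not tested.

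Other lysosomal hydrolases numbered 40, with a median log2 fold change of 0.05. Their groups did not overlap in 8 that were higher and 9 that were lower in Aβ40 cells. Lowest were Ppt2, a thioesterase, at -0.55 (SE 0.27), and Galc, galactosylceramidase, at -0.52 (SE 0.19). Highest at a mean of at least 5 CPM were Gm2a, the GM2 activator that serves beta-hexosaminidase, at 0.65 (SE 0.26), and Asah1, acid ceramidase, at 0.51 (SE 0.26). Over the whole list values ran from -0.55 to 0.98. Gm2a read 93.1 and 73.7 CPM in Aβ40 libraries, against 39.1 and 66.9 CPM in DMSO libraries, the opposite side from Hexa. Asah1 and the protease Lgmn, with a log2 fold change of 0.35 (SE 0.19), were the most abundant of this list per length. The median of this list was -0.01 without the first Aβ40 library, -0.03 without the second, -0.05 without the first DMSO library and 0.07 without the second.

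Other lysosomal membrane proteins numbered 23, with a median log2 fold change of -0.06, and the groups did not overlap in 4 that were higher and 7 that were lower. Sidt2, a nucleic acid transporter of the lysosome, read 149 and 164 CPM in Aβ40 libraries, against 213 and 261 CPM in DMSO libraries. Cln3, the protein lost in juvenile Batten disease, read 69.7 and 70.7 CPM in Aβ40 libraries, against 94.3 and 108 CPM in DMSO libraries. Their log2 fold changes were -0.60 (SE 0.18, edgeR adjusted p = 0.322) for Sidt2 and -0.53 (SE 0.17, edgeR adjusted p = 0.330) for Cln3. Highest at a mean of at least 5 CPM were the lysosomal transmembrane protein gene Laptm4b at 0.61 (SE 0.30) and Scarb2, the carrier of glucocerebrosidase, at 0.27 (SE 0.16). Over the whole list values ran from -0.85 to 0.85. The most abundant per length, Laptm4a and Laptm5, had log2 fold changes of 0.09 (SE 0.18) and -0.47 (SE 0.22). The median of this list was -0.12 without the first Aβ40 library, 0.02 without the second, -0.28 without the first DMSO library and 0.08 without the second.

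The full set of V-ATPase genes, which takes in the 5 members, had 25 entries, of which 19 could be tested, with a median log2 fold change of -0.10. The groups did not overlap in 2 that were higher and 7 that were lower in Aβ40 cells, beside 23.2% and 21.9% of all genes. Atp6v0a1, a proton-channel subunit of V0, read 43.6 and 53.2 CPM in Aβ40 libraries, against 67.1 and 86.8 CPM in DMSO libraries. Its log2 fold change was -0.67 (SE 0.20, edgeR adjusted p = 0.317), the lowest of the set, followed by Atp6v0d1. Highest were Atp6v1g1, at 0.29 (SE 0.20), and Atp6v0c, at 0.28 (SE 0.28). The most abundant per length were Atp6v1g1 and Atp6ap2, and Atp6ap2 had a log2 fold change of -0.37 (SE 0.20). By sector, a division made after the values were seen, the 8 tested V0 genes had a median of -0.22 and 4 of them were lower in both Aβ40 libraries, while 0 were higher, beside 21.9% and 23.2% of all genes. The 9 tested V1 genes had a median of -0.05, with 1 lower and 2 higher. The difference between the sectors was not tested.

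Other autophagy genes numbered 46, with a median log2 fold change of -0.01 and with 9 higher and 9 lower in both Aβ40 libraries. Lowest were Plekhm1, which tethers autophagosomes to lysosomes, at -0.55 (SE 0.18), and Epg5, another tether, at -0.52 (SE 0.22). Highest were Ncoa4, the receptor that takes ferritin to the lysosome, at 0.82 (SE 0.38), and the receptor gene Calcoco1 at 0.56 (SE 0.28). Ncoa4 read 116 and 61.6 CPM in Aβ40 libraries, against 31.8 and 68.7 CPM in DMSO libraries, so that the groups overlapped. The most abundant per length, Rab7 and Vamp8, which act in fusion, had log2 fold changes of -0.11 (SE 0.19) and -0.11 (SE 0.29). The median of this list was -0.06 without the first Aβ40 library, 0.09 without the second, -0.05 without the first DMSO library and 0.08 without the second.

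The pathway of mTORC1 and the Rag GTPases, which ties amino acid supply to TFEB and TFE3, numbered 32 genes, with a median log2 fold change of -0.03 and with 5 higher and 6 lower in both Aβ40 libraries. Fnip2, a partner of folliculin in the complex that acts on RagC and RagD, read 61.9 and 64.3 CPM in Aβ40 libraries, against 124 and 115 CPM in DMSO libraries. Both pairs were tight and far apart. The log2 fold change of Fnip2 was -0.92 (SE 0.17, interval -1.29 to -0.54), with an unadjusted p of 0.000365 and an adjusted p of 0.107 by edgeR's quasi-likelihood test, the lowest among all members and further genes. Next lowest was Sesn2, a leucine sensor, at -0.42 (SE 0.24), whose groups overlapped. Highest at a mean of at least 5 CPM were Depdc5, of the GATOR1 complex, at 0.53 (SE 0.28), and Lamtor5, of the Ragulator complex that anchors the Rag GTPases, at 0.39 (SE 0.18). Over the whole list values ran from -0.92 to 0.56. Lamtor5 and Lamtor4, also of Ragulator, were the most abundant per length, and Lamtor4 had a log2 fold change of 0.19 (SE 0.30). Leaving out 1 library gave medians of 0.05 without the first Aβ40 library, -0.08 without the second, 0.01 without the first DMSO library and -0.09 without the second.

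Sorting to the lysosome was represented by 14 genes, with a median log2 fold change of -0.02 and with 3 higher and 4 lower in both Aβ40 libraries. Lowest were Igf2r, the large mannose 6-phosphate receptor, at -0.53 (SE 0.32), and Gga1, an adaptor that loads such receptors, at -0.53 (SE 0.17). Gga1 read 44.3 and 46.5 CPM in Aβ40 libraries, against 66.7 and 64.4 CPM in DMSO libraries, without overlap, whereas Igf2r overlapped. Sorl1, a sorting receptor that also binds the amyloid precursor protein, was among the 2 most abundant per length and read 346 and 335 CPM in Aβ40 libraries, against 490 and 482 CPM in DMSO libraries. Its log2 fold change was -0.51 (SE 0.17, edgeR adjusted p = 0.334). The other, M6pr, the small mannose 6-phosphate receptor, was level at 301 and 313 CPM in Aβ40 libraries, against 313 and 301 CPM in DMSO libraries. The retromer genes Vps29 and Vps35 were the highest, at 0.39 (SE 0.19) and 0.30 (SE 0.20). Its median was 0.00 without the first Aβ40 library, -0.01 without the second, -0.11 without the first DMSO library and 0.09 without the second.

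**Figure D5:**
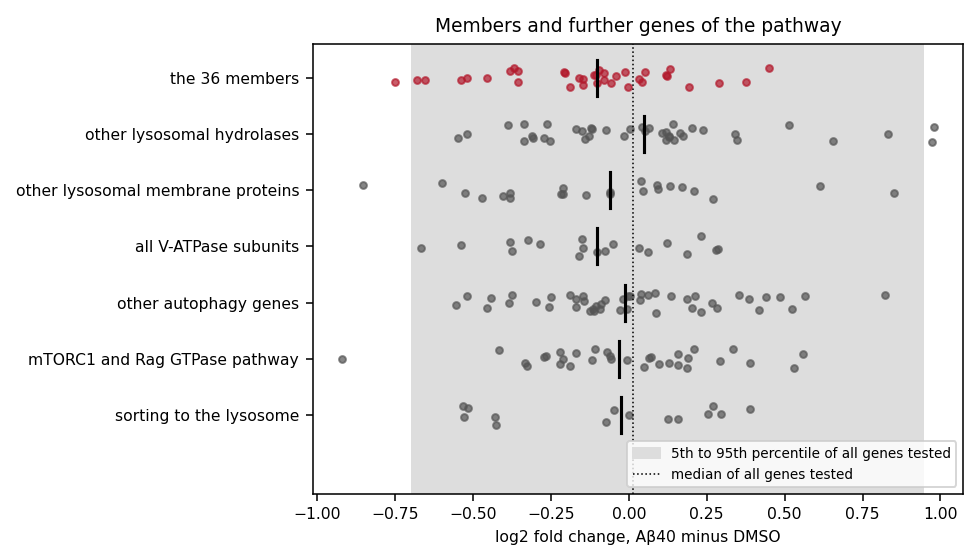
Log2 fold change, Aβ40 minus DMSO, of the 36 members (red) and of further genes of the pathway in 6 lists (grey), 1 point a gene tested, with a bar at each list's median. The grey band spans the 5th to the 95th percentile of all genes tested and the dotted line is their median, 0.01. Medians of the lists run from -0.10 to 0.05, and the lowest point is Fnip2 at -0.92.

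Genes with and without the CLEAR palindrome in a promoter window were set side by side over the whole table. The 212 tested genes with the palindrome had a median log2 fold change of -0.04 and 56.1% were negative. The 9462 tested genes whose windows lacked it had a median of 0.00 and 49.7% were negative. Among the 5 members with it, the log2 fold changes were -0.54 for Atp6v0d1, -0.38 for Mcoln1, -0.37 for Ctsd, -0.15 for Atp6v1a and 0.13 for Ctsa. Members whose windows lacked it ran from -0.75 for Grn to 0.38 for Ctss. They included Ulk1 and Tfe3, which with Grn had the 3 lowest log2 fold changes of all 36. The difference between genes with and without the palindrome was not tested.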

How the data were processed

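RNA was sequenced from 4 libraries of mouse bone marrow neutrophils, 2 given Aβ40 and 2 given DMSO, grouped by the labels. Per the submitters' processing notes, HISAT2 2.0.5, featureCounts 1.5.0-p3 and the build mm10 were used, without their order or role. For the annotation release and strandedness, details were not given in the sources used here. The authors deposited whole-number read counts per gene, which were tested as they are, and FPKM, which were used only to compare levels between genes and in alternatives. The members and gene lists were chosen with earlier results of these data known.

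Counts were filtered by filterByExpr, scaled by TMM and fitted in edgeR 4.0.16 (R 4.3.3; glmQLFit and glmQLFTest, intercept and group, 2-sided, Benjamini-Hochberg adjustment over 13479 genes, calls below an adjusted p of 0.05). Residual degrees of freedom were 2 and prior ones 6.88, with a common biological coefficient of variation of 0.210. The scripts were tested on simulated data. Lists were described by counts and medians, with no set test. The named further genes were, per list, the 2 lowest and 2 highest log2 fold changes at a mean of at least 5 CPM and the 2 of highest mean FPKM. Markers were named as the 2 most abundant of each list. The rule also took Tfec as the remaining MiT/TFE relative. Markers named beyond the 2 of each list, and the split of the V-ATPase by sector, were chosen with their values in view.

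Alternatives were median-ratio scaling, total counts alone, DESeq2 1.42.0, no filter on low counts, a replicate block, protein-coding genes only, the fits without 1 library, and limma 3.58.1 on log2(FPKM + 1) and log2(FPKM + 0.1). A crossed replicate block was added after seeing the data. Intervals are at 95% and cover the fit's error only. Promoter windows were RefSeq's, in a table supplied with the data, and the members without a window there were Npc1, Becn1, Atp6v1h, Atp6v1b2, Ctsb, Atg16l1 and Ctsh.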

Additional observations from a re-analysis of the deposited data

How the results depend on the processing

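Of the members' values under 12 alternatives, 397 kept their direction and their side of the threshold, 13 passed it and 22 changed sign; the cause was not tested. Genes called higher numbered 17, and 93 with DESeq2, 185 with no filter on low counts, 27 with the replicate block, 0 with limma on log2(FPKM + 1) and 0 on log2(FPKM + 0.1), and 0 to 805 when 1 library was left out. Genes called lower numbered 0, and 1 with total counts alone, 36 with DESeq2, 70 with no filter and 0 to 471 when 1 library was left out. Calls were 0 without either Aβ40 library, and 805 higher and 471 lower without the first and 555 higher and 469 lower without the second DMSO library. Members called numbered 1 with DESeq2, 1 with no filter (Grn in each) and 0 to 6 when 1 library was left out. The labels do not say whether equal replicate numbers mark a shared animal or day. Deviations of same-numbered libraries from their group means had r = -0.226 over genes, which cannot decide this with 2 libraries a group. The replicate block called 0 members. A crossed block, chosen after seeing the data, called 445 genes higher, 276 lower and 3 members. With total counts alone the median log2 fold change was -0.17 for all members, -0.20 for the proton pump, -0.15 for V-ATPase genes and -0.087 for the mTORC1 pathway, while that of all genes moved from 0.01 to -0.04. Leaving out 1 library gave medians of -0.19 to -0.049 for all members, -0.73 to -0.24 for MiT/TFE factors, -0.17 to 0.026 for hydrolases, -0.27 to 0.0043 for membrane proteins, -0.17 to -0.10 for the proton pump, -0.20 to 0.011 for autophagy genes, -0.16 to -0.10 for V-ATPase genes, -0.054 to 0.069 for other hydrolases, -0.28 to 0.081 for other membrane proteins, -0.058 to 0.087 for other autophagy genes, -0.092 to 0.052 for the mTORC1 pathway and -0.11 to 0.091 for sorting to the lysosome. Sign changed for Cd63 with protein-coding genes only (0.0006) and with the replicate block (0.0043), and for Cd68 (-0.0447) and Map1lc3b (-0.0069) with total counts alone. Over the fits that left out 1 library it changed for Atg16l1 (-0.31 to 0.094), Atg7 (-0.37 to 0.21), Becn1 (-0.20 to 0.12), Cd63 (-0.19 to 0.19), Cd68 (-0.31 to 0.46), Ctsb (-0.20 to 0.093), Ctsz (-0.38 to 0.11), Gaa (-0.57 to 0.065), Gabarap (-0.062 to 0.16), Lamp1 (-0.23 to 0.071), Lamp2 (-0.24 to 0.16), Npc1 (-0.45 to 0.31), Npc2 (-0.043 to 0.29) and Wipi1 (-0.27 to 0.088). Tfe3, Tfeb, Mitf, Ctsd, Gusb, Hexa, Grn, Psap, Mcoln1, Atp6v0d1, Atp6v1a, Atp6v1b2, Atp6ap1, Ulk1 and Sqstm1 stayed negative in all 12. Ctsa, Ctsh, Ctsl, Ctss, Atp6v1h and Atg5 stayed positive in all 12. A kept sign says little of size, as Ctsd came to -0.012 without the first DMSO library. With 2 libraries a group, 0 calls at an adjusted p do not show that the members did not differ.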
